A study of Mus musculus with 12 samples.

Results

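Transcripts of the enzymes and transporters of glycolysis, lactate and pyruvate handling and the tricarboxylic acid (TCA) cycle were examined in sorted mouse skin cells. The members were taken by gene symbol from a list of 35 genes, and 33 of the 35 were found among the 25965 genes of the deposited tables. Mpc1 and Mpc2, the subunits of the mitochondrial pyruvate carrier, have rows under their older symbols Brp44l and Brp44 and are described apart from the 33. By role, 16 members act in glucose uptake and glycolysis, 4 in lactate production and transport, 3 in the entry of pyruvate into mitochondrial oxidation, and 10 in the TCA cycle.

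Glycolysis splits glucose into pyruvate in the cytosol. Pyruvate is then either reduced to lactate and exported, or carried into the mitochondrion, where the pyruvate dehydrogenase complex makes the acetyl-CoA that feeds the TCA cycle. Keratinocytes are known for active glycolysis, and mouse hair follicle stem cells have been described as lactate producers. EGFR, the epidermal growth factor receptor, is a growth factor receptor of keratinocytes and is the gene deleted in these mice.

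RNA sequencing of 12 libraries covered 3 compartments by 2 genotypes, with 2 libraries in each of 6 groups. The HFSC (hair follicle stem cell) knockout group carries the genotype EGFR_delta_LGR5, the ORS (outer root sheath) and IFE knockout (KO) groups carry EGFR_delta_ep, and the controls of all compartments carry EGFR_fl_fl, a floxed allele. The labels spell IFE out as inner root sheath, so the abbreviation is kept here. Age, the promoter of each Cre and the number of animals per library are not stated in the labels. Libraries are named by the number that opens their titles, namely L95 and L97 (HFSC labelled knockout), L136 and L94 (HFSC control), E358 and E359 (ORS KO and also IFE KO), E341 and E344 (ORS control), and E341 and E360 (IFE control). Values of 2 libraries are given in these orders below. Whether the libraries of a group are from different mice is not stated, so the p-values reflect only variation among these samples, part of which could be technical.

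Each library held between 11.4 and 27.7 M reads in genes. As a share of all its reads this was 26.9% to 28.9% in HFSC, 50.6% to 54.6% in ORS and 27.8% to 29.6% in IFE, so the ORS libraries stand apart. Levels are counts per 1000000 reads in genes (CPM) after TMM scaling. This scaling is meant to reduce differences in library composition and assumes that most genes do not differ, which was not tested. Egfr itself stood at 335 and 330.1 CPM in the HFSC libraries labelled knockout and 389 and 431 CPM in HFSC controls, so the HFSC libraries labelled knockout did not lose the transcript. It stood at 3.72 and 55.2 CPM in ORS KO and 277 and 247 CPM in ORS controls, and at 0 and 0.319 CPM in IFE KO and 116 and 156 CPM in IFE controls. By Y-linked reads, 5 libraries are male and 7 female. In IFE both KO libraries are female and both controls male, and in HFSC both libraries labelled knockout are male and both controls female, so sex and genotype cannot be told apart there. In ORS, control E341 is male, while control E344 and both KO libraries are female. Some markers followed the compartments. Krt10, a suprabasal epidermal keratin, was at 1064 and 842 CPM in IFE KO and 1404 and 649 CPM in IFE controls. Elsewhere it was at most 77.7 CPM. Cd34, a bulge marker, was at 1329.6 to 2150.4 CPM in HFSC, at most 5.88 CPM in ORS and at 0 in IFE. Other markers ran differently. Of 11 outer root sheath and bulge markers, 3 were higher and 4 lower in HFSC than in ORS without overlap between libraries. This compares with 16.8% and 17% of all genes. Nfatc1 was at 198 to 247 CPM in HFSC and 409 to 554 CPM in ORS. Ivl, listed for IFE, was at 3.01 to 28.9 CPM in HFSC and 0 to 1.85 CPM in IFE. Of 11 inner root sheath and hair shaft markers, Krt25, Krt28, Krt31 and Hoxc13 were at 0 reads in every IFE library, while Krt71 reached 6.82 CPM and Krt73 23.3 CPM there. Their sum was 554 to 692 CPM in HFSC, 343 to 437 CPM in ORS and 877 to 1061 CPM in IFE. Gata3 alone, a factor also expressed in epidermis, made up 857 to 1010 CPM in IFE. Without Gata3 the sum was 111.8 to 226.5 CPM in HFSC, 60.9 to 98.8 CPM in ORS and 14.6 to 50.7 CPM in IFE. The high IFE sum of this list thus rests on Gata3, and the other markers together were lowest in IFE. HFSC libraries also belong to another set of titles and ORS and IFE titles carry different suffixes, so compartment and preparation cannot be told apart.

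The promoters of Slc2a1, Slc16a1, Mdh1 and Mdh2 are shown because these members passed the threshold in each of the 3 compartment comparisons, which share libraries. Slc2a1 encodes the glucose transporter GLUT1, Slc16a1 the lactate and pyruvate transporter MCT1, and Mdh1 and Mdh2 the cytosolic and mitochondrial malate dehydrogenases. Each stretch is the 250 bases before an annotated start in RefSeq (GRCm38.p6), read 5′ to 3′ on the gene's strand. Capitals mark ACGTG, the core letters of a hypoxia response element, or CACGT, the same letters read on the other strand.
Slc2a1, chr4:119108495-119108744, plus strand: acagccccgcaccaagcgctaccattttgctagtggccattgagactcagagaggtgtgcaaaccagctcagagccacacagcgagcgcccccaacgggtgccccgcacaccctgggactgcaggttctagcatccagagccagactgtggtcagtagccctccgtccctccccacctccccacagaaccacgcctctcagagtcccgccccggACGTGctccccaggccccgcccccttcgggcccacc
Slc16a1, chr3:104638414-104638663, plus strand: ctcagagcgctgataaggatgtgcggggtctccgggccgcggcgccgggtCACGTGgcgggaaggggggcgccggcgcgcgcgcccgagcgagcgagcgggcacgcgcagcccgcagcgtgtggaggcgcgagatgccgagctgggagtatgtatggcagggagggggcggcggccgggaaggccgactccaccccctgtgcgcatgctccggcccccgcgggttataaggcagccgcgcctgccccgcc
Mdh1, chr11:21571935-21572184, minus strand: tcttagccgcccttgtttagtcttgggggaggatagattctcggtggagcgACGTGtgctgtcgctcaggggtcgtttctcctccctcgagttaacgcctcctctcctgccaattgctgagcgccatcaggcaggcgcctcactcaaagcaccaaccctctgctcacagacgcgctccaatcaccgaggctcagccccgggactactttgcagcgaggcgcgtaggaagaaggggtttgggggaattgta
Mdh2, chr5:135778399-135778648, plus strand: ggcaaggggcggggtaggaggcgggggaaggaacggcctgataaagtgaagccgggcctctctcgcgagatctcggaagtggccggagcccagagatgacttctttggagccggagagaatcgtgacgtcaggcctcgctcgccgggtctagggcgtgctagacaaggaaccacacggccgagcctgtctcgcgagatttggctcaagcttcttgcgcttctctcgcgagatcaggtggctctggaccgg
The Slc2a1 and Mdh1 windows hold 1 match each. In Slc16a1 the matches on both strands overlap in a single CACGTG palindrome, the E-box letters that MYC and other basic helix-loop-helix factors read. The Mdh2 window holds 0 matches. Of 33 genes with a RefSeq window (31 members with Brp44 and Brp44l, without Idh3a and Slc2a3), 14 hold ACGTG on either strand in at least 1 window, or 42.42%, and 18.49% of all 27025 genes with a window do. CACGTG, which always contains ACGTG, occurs in 12.12% of the member genes and 6.86% of all genes. The 33 member genes have 51 windows and all 27025 genes have 32851, and a gene with more windows has more places for a match. Base composition was not matched, and the shares were not tested. A match is a description of letters and no evidence of binding.

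Levels of different genes were compared per kilobase of annotated exon. Aldoa, the main muscle and general aldolase, ranked highest of the 33 in every compartment, at 413 ± 27.4 CPM per kb in HFSC, 186 ± 51.3 in ORS and 440.3 ± 38 in IFE (SD, n = 4 each). Mdh1 followed in ORS at 168 ± 19.8 CPM per kb and in IFE at 253 ± 34.6. In HFSC the next rank was Ldha, the lactate dehydrogenase A chain, at 145 ± 15.2 CPM per kb. In ORS the values of Aldoa and Mdh1 overlap within their SDs.

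At the low end, Slc2a3, which encodes the neuronal-type glucose transporter GLUT3, had 0.245 and 5.49 CPM in the HFSC libraries labelled knockout and 3.89 and 1.65 CPM in HFSC controls. It was at 0 and 0.113 CPM in ORS KO and 0.427 and 0 CPM in ORS controls, and had 0 reads in all 4 IFE libraries. Slc16a3, which encodes the lactate exporter MCT4, stayed at or below 3.69 CPM in every library. Gapdh, the glyceraldehyde phosphate dehydrogenase often used as a reference gene, was listed at only 1.97 to 8.94 CPM.

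Several members share sequence with other genes. Of all 50-base windows of the Gapdh transcripts, 82.49% also occur in transcripts of other annotated genes, 215 of them pseudogenes among 226 genes. The share was 72.19% for Eno1, 67.96% for Pgk1, 41.48% for Pgam1, 34.41% for Pkm, 30.26% for Pdhb, 27.01% for Ldhb, 19.26% for Gpi1, 16.65% for Ldha and 13.53% for Aldoa. These 10 members exceed 10%, and their values are uncertain where the authors' counting could split or drop shared reads. A share of 0 was found for 19 members, Slc2a1, Slc16a1, Hk1, Pfkp, Mdh1, Mdh2 and Sdhb among them.

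**Figure D1:**
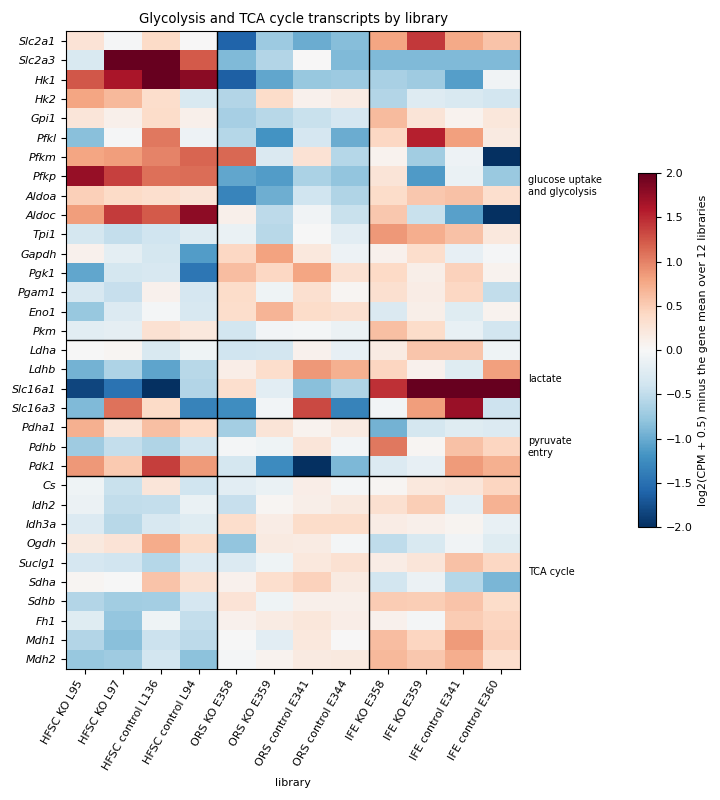
Each cell is log2(CPM + 0.5) of a member (row) in a library (column) minus that gene's mean over the 12 libraries, with colours ending at 2 log2 units, rows grouped by role and columns by compartment and genotype. Slc16a1 is high in the 4 IFE columns, Hk1, Pfkp and Aldoc are high in the 4 HFSC columns, and Mdh1, Mdh2 and Sdhb are low in the HFSC columns.

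The first question is which members differ between compartments, over both genotypes. HFSC cells against ORS cells gave 18 of 33 members called at an adjusted p under 0.05 (limma moderated test, Benjamini-Hochberg over all genes), 8 higher and 10 lower in HFSC. Over all 15251 genes tested, 28.7% were called, 14.3% higher and 14.4% lower. Without overlap between libraries, 9 members were higher and 10 lower, beside 33.9% of all genes, 16.8% higher and 17% lower. The member median was a log2 difference of -0.03, beside 0.03 over all genes. On the deposited scale, which divides by a library total that includes reads outside genes, 24 members were called, 4 higher and 20 lower, and the median of all genes moved to -0.74.

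Of the 16 uptake and glycolysis members, 7 were called higher and 2 lower in HFSC than in ORS, and of the 3 pyruvate entry members 1 was called higher. Hk1, the widely expressed hexokinase, had 57.3 and 75.1 CPM in the HFSC libraries labelled knockout and 96 and 84.9 CPM in HFSC controls, against 7.36 and 11.3 CPM in ORS KO and 13.9 and 14.2 CPM in ORS controls. All 4 HFSC values lie above all 4 ORS values, with a log2 difference of 2.71 (SE 0.32, adjusted p = 7.05e-05). Pfkp, the platelet-type phosphofructokinase of the committed step, had 357.8 and 275 CPM in the HFSC libraries labelled knockout and 229.9 and 232 CPM in HFSC controls, against 51.8 and 48.7 CPM in ORS KO and 68.4 and 61.7 CPM in ORS controls. The groups do not overlap, and the log2 difference was 2.23 (SE 0.27, adjusted p = 8.27e-05).

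Pdk1, a kinase that inhibits pyruvate dehydrogenase, had 67.2 and 52.8 CPM in the HFSC libraries labelled knockout and 96.5 and 66.3 CPM in HFSC controls, against 28.7 and 15 CPM in ORS KO and 7.29 and 19.4 CPM in ORS controls. Its log2 difference was 2.09 (SE 0.34, adjusted p = 0.00062), also without overlap. Slc2a3, with its low levels given above, differed by 2.05 (SE 0.64, adjusted p = 0.0308) and its groups overlapped, with HFSC L95 inside the ORS range. That call was lost without any 1 of HFSC L97, HFSC L136 or the 4 ORS libraries (adjusted p 0.0504 to 0.112), and the log2 difference was 1.30 without L97 and 2.80 without L95. The other called rises were Aldoa (1.19), Slc2a1 (1.20), Aldoc (1.54) and Gpi1, the glucose phosphate isomerase (0.71). Gpi1 turned to the other direction on the deposited scale.

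The members called lower in HFSC than in ORS were Pgk1 and Eno1 of glycolysis, 2 of the 4 lactate genes (Ldhb and Slc16a1) and 6 TCA cycle genes. The other lactate genes had log2 differences of 0.12 (Ldha) and 0.14 (Slc16a3) and did not pass. Ldhb, the lactate dehydrogenase B chain, had 27.7 and 35.1 CPM in the HFSC libraries labelled knockout and 25.8 and 36.7 CPM in HFSC controls, against 59.2 and 69.3 CPM in ORS KO and 98.8 and 88.2 CPM in ORS controls. Every HFSC value is below every ORS value, with a log2 difference of -1.30 (SE 0.27, adjusted p = 0.00298). Pgk1, the X-linked phosphoglycerate kinase, differed by -1.33 (SE 0.35, adjusted p = 0.0144), and Eno1, an enolase, by -0.78 (SE 0.18, adjusted p = 0.00755). The Pgk1 call was lost without ORS control E341, HFSC L95 or HFSC L94 (adjusted p 0.0612 to 0.0626).

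Slc16a1 differed between HFSC and ORS by -1.51 (SE 0.51, adjusted p = 0.0433). It had 7.67 and 10.05 CPM in the HFSC libraries labelled knockout and 2.21 and 19 CPM in HFSC controls, against 36.5 and 24.8 CPM in ORS KO and 16 and 18.9 CPM in ORS controls, so HFSC L94 lies inside the ORS range. Leaving out any 1 of 9 libraries (all but IFE KO E358, IFE KO E359 and HFSC L94) ended this call, with adjusted p from 0.0567 to 0.133, and the log2 difference was -0.80 without HFSC L136 and -2.22 without HFSC L94. Of the 10 TCA cycle members 6 were called lower and 0 higher, namely Idh3a, Suclg1, Sdhb, Fh1, Mdh1 and Mdh2, with log2 differences from -0.76 for Mdh2 to -0.43 for Suclg1. Idh3a is a subunit of the NAD-dependent isocitrate dehydrogenase, Suclg1 of succinyl-CoA ligase and Sdhb of succinate dehydrogenase, and Fh1 is fumarase.

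HFSC cells against IFE cells gave 22 of 33 members called, 9 higher and 13 lower in HFSC, beside 36.1% of all genes tested, 19.9% higher and 16.1% lower. Of the members 8 were higher and 12 lower without overlap, beside 34% of all genes, 18.4% higher and 15.7% lower. The member median was -0.39, beside 0.18 over all genes. Hk1 had 57.3 and 75.1 CPM in the HFSC libraries labelled knockout and 96 and 84.9 CPM in HFSC controls, against 15 and 14.4 CPM in IFE KO and 10.8 and 22.8 CPM in IFE controls. The groups do not overlap, and the log2 difference was 2.30 (SE 0.32, adjusted p = 0.000162). Aldoc, the brain-type aldolase, had 22.8 and 33.7 CPM in the HFSC libraries labelled knockout and 29.9 and 44.4 CPM in HFSC controls, against 18.4 and 9.02 CPM in IFE KO and 5.62 and 0.803 CPM in IFE controls. The groups do not overlap, with a log2 difference of 2.39 (SE 0.52, adjusted p = 0.00357). Its IFE values spread widely, and in the libraries labelled knockout alone the log2 difference was 1.07 with an adjusted p of 0.329 (limma).

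Pfkm, the muscle-type phosphofructokinase, differed by 2.03 (SE 0.66, adjusted p = 0.0321). It had 25.4 and 26.3 CPM in the HFSC libraries labelled knockout and 29.3 and 33 CPM in HFSC controls, against 15.3 and 8.78 CPM in IFE KO and 13.5 and 0.714 CPM in IFE controls, the last value (E360) far below the others. Without IFE control E360 the log2 difference was 1.15 with an adjusted p of 0.0816 (limma), and without IFE control E341 it was 2.91. Removing IFE KO E359 or any 1 of the 4 HFSC libraries also ended the call (0.0709 to 0.0913). Slc2a3, at 0 reads in IFE, averaged 2.82 ± 2.33 CPM in HFSC (SD, n = 4). That mean is at least 10.5-fold higher than the limit of 3 reads in the shallowest IFE library, 0.268 CPM. HFSC L95, at 0.245 CPM, lies below this limit. The log2 difference of Slc2a3 was 2.35, and 1.60 without HFSC L97. Its adjusted p was 0.0129 and rose to 0.0531 without HFSC L136. The remaining called rises were Pfkp (1.77), Hk2, the inducible hexokinase (0.74), Pdha1, the X-linked alpha subunit of pyruvate dehydrogenase (0.95), Sdha, the catalytic flavoprotein of succinate dehydrogenase (0.72) and Ogdh, a subunit of oxoglutarate dehydrogenase (0.68).

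Slc16a1 had the largest difference of any member between HFSC and IFE. Beside the HFSC values above, it had 80.3 and 154 CPM in IFE KO and 146 and 157 CPM in IFE controls, all above every HFSC and ORS value. The log2 difference, HFSC minus IFE, was -3.99 (SE 0.51, adjusted p = 7.93e-05), with -3.28 without HFSC L136 and -4.70 without HFSC L94. Mdh2 had 276 and 283 CPM in the HFSC libraries labelled knockout and 362 and 264 CPM in HFSC controls, against 727 and 678 CPM in IFE KO and 773 and 586 CPM in IFE controls. Mdh1 had 284 and 239 CPM in the HFSC libraries labelled knockout and 317 and 297 CPM in HFSC controls, against 659 and 577 CPM in IFE KO and 772 and 591 CPM in IFE controls. Both are lower in every HFSC library than in any IFE library, with log2 differences of -1.22 (SE 0.13, adjusted p = 2.36e-05) for Mdh2 and -1.19 (SE 0.13, adjusted p = 2.43e-05) for Mdh1. Ldhb differed by -1.07 (SE 0.27, adjusted p = 0.00803).

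The other called falls in HFSC against IFE were Pdhb, the pyruvate dehydrogenase beta subunit (-1.07), Sdhb (-1.06), Pgk1 (-1.06), Tpi1, the triose phosphate isomerase (-0.97), Suclg1 (-0.74), Slc2a1 (-0.72), Fh1 (-0.64), Idh2, the mitochondrial NADP-dependent isocitrate dehydrogenase (-0.64) and Idh3a (-0.39). Of the 10 TCA cycle members, 7 were thus lower, 2 were higher (Sdha and Ogdh) and Cs, the citrate synthase of the entry step, did not pass. The succinate dehydrogenase subunits moved apart, with Sdhb lower and Sdha higher.

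**Figure D2:**
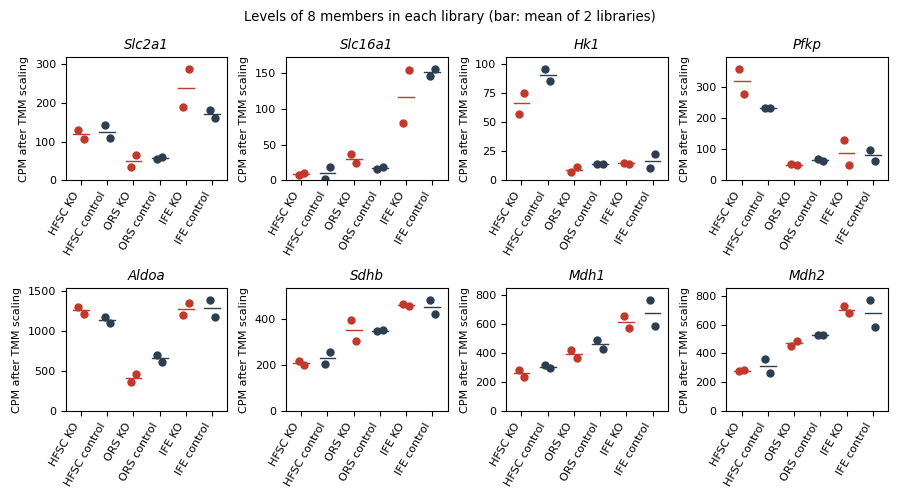
CPM after TMM scaling of 8 members, with a point for each library, red for KO or labelled knockout and dark for control, and a bar at the mean of 2 libraries. Mdh1, Mdh2 and Sdhb are lowest in HFSC, Hk1 and Pfkp are highest in HFSC, and Slc16a1 is highest in IFE at 80.3 to 157 CPM. On the deposited scale, Mdh1 and Mdh2 of ORS turn to above IFE.

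ORS cells against IFE cells gave 10 of 32 members called, 1 higher and 9 lower in ORS, beside 15.8% of all 14449 genes tested, 8.53% higher and 7.25% lower. Without overlap, 3 members were higher and 10 lower, beside 21.6% of all genes, 11.7% higher and 9.9% lower. Slc2a3 did not pass the filter on low counts in this fit. The member median was -0.34, beside 0.13 over all genes. This count depends on scaling: on the deposited scale 21 members were called, 19 higher and 2 lower, and the median of all genes was 0.92. Relative to the all-gene median, 11 of 32 members lie above it after TMM and 12 on the deposited scale. The count fell to 5 without IFE control E341 or ORS control E341, and to 6 without IFE KO E358, ORS KO E359 or ORS control E344.

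Slc16a1 had 36.5 and 24.8 CPM in ORS KO and 16 and 18.9 CPM in ORS controls, against 80.3 and 154 CPM in IFE KO and 146 and 157 CPM in IFE controls. The groups do not overlap, and the log2 difference was -2.48 (SE 0.29, adjusted p = 0.000275). Slc2a1 had 35.5 and 65.2 CPM in ORS KO and 54.1 and 59.4 CPM in ORS controls, against 188 and 288 CPM in IFE KO and 182 and 160.1 CPM in IFE controls. It differed by -1.92 (SE 0.25, adjusted p = 0.000536), and the HFSC values of 130.0 and 107 CPM labelled knockout and 141 and 109 CPM control fall between. Neither transporter changed direction under any alternative tried, but with the library number as a fixed block both missed the threshold (limma adjusted p = 0.0833 for Slc16a1 and 0.051 for Slc2a1).

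Sdha was the single member called higher in ORS than in IFE. It had 234 and 279 CPM in ORS KO and 303 and 249.6 CPM in ORS controls, against 170.3 and 205 CPM in IFE KO and 149 and 117 CPM in IFE controls, a log2 difference of 0.76 (SE 0.17, adjusted p = 0.0129), and the call ended without IFE control E360 or ORS control E341 (adjusted p 0.0528 and 0.0761). Pfkl, the liver-type phosphofructokinase, differed by -1.51 (SE 0.35, adjusted p = 0.0152) and Pdk1 by -1.47 (SE 0.40, adjusted p = 0.0303). Both are called lower, and neither passed on the deposited scale (-0.55 for Pfkl and -0.50 for Pdk1). The Pfkl call ended without IFE control E341, ORS KO E359 or ORS control E344, and the Pdk1 call without any 1 of 6 libraries (the 4 of IFE, ORS KO E359 and ORS control E341), with adjusted p from 0.0503 to 0.114.

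The other members called lower in ORS were Aldoa (-1.28), Tpi1 (-0.83), Gpi1 (-0.80), Mdh1 (-0.59) and Mdh2 (-0.46), of which Tpi1, Gpi1, Mdh1 and Mdh2 turned to higher on the deposited scale. Aldoa had 372 and 470.5 CPM in ORS KO and 709 and 613 CPM in ORS controls, against 1201 and 1356 CPM in IFE KO and 1396 and 1174 CPM in IFE controls, so ORS is lower in every library, and its HFSC values of 1301 and 1218 CPM labelled knockout and 1180.2 and 1109 CPM control lie in or near the IFE range.

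**Figure D3:**
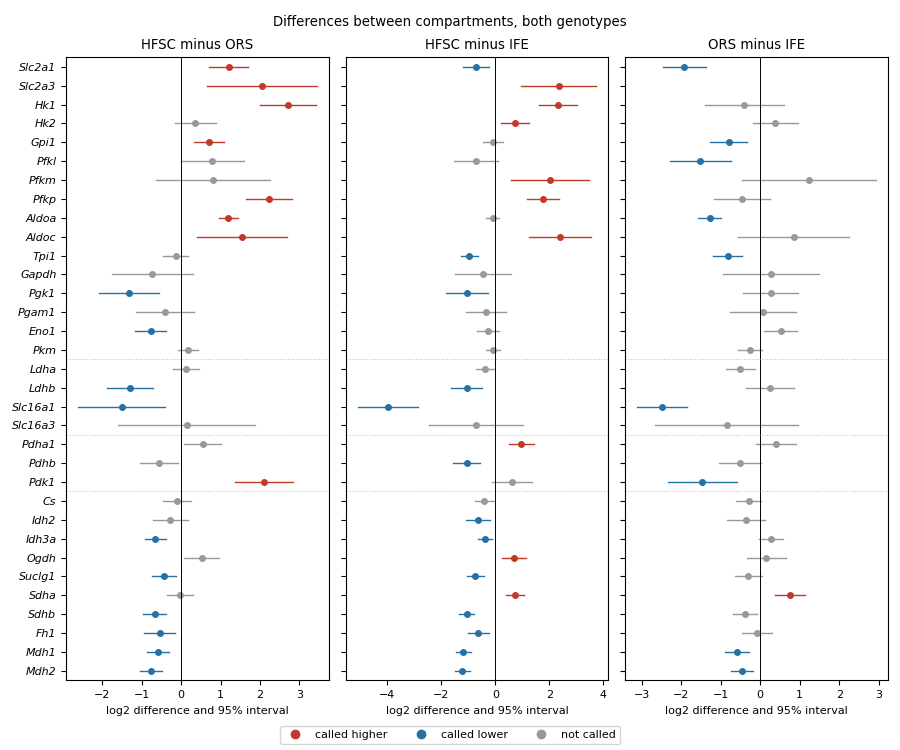
Log2 differences of the members between compartments after TMM scaling (points) with 95% intervals (lines), coloured by call. Slc16a1 reaches -3.99 in HFSC minus IFE, Hk1 2.71 in HFSC minus ORS, and Slc2a1 -1.92 in ORS minus IFE, while the ORS minus IFE differences of Gpi1, Tpi1, Mdh1 and Mdh2 and the HFSC minus ORS difference of Gpi1 change sign on the deposited scale.

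Across the 3 compartment comparisons, 6 members passed in none, namely Gapdh, Pgam1 (a phosphoglycerate mutase), Pkm (the muscle-type pyruvate kinase), Ldha, Slc16a3 and Cs. Ldha averaged 481 ± 50.2 CPM in HFSC, 445 ± 70.03 in ORS and 637 ± 132 in IFE (SD, n = 4 each). The 95% interval of its log2 difference was -0.71 to -0.06 for HFSC minus IFE and -0.87 to -0.13 for ORS minus IFE, so the misses do not show equal levels. Pkm averaged 439 ± 80.02 CPM in HFSC, 384 ± 39.6 in ORS and 474 ± 145 in IFE. Cs averaged 230.0 ± 52.3, 245 ± 25.5 and 301 ± 33.2 CPM in the same order.

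Of the pyruvate carrier subunits, Brp44 (Mpc2) had 43.7 and 63.1 CPM in the HFSC libraries labelled knockout and 58.4 and 77 CPM in HFSC controls, against 103 and 63.8 CPM in ORS KO and 91.1 and 78.1 CPM in ORS controls and 154 and 148 CPM in IFE KO and 156 and 217 CPM in IFE controls. It was lower in HFSC than in IFE by a log2 difference of -1.48 (SE 0.22, adjusted p = 0.000244) and lower in ORS than in IFE by -1.01 (SE 0.22, adjusted p = 0.0107). Brp44l (Mpc1) lay between 4.63 and 9.92 CPM in all libraries and passed in no comparison. Of its windows 23.25% are shared with other genes.

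Averaged by role within each library, the members had different orders between compartments. The 16 uptake and glycolysis members averaged 5.87 ± 0.19 in HFSC, 5.23 ± 0.13 in ORS and 5.45 ± 0.31 in IFE on the log2(CPM + 0.5) scale (SD, n = 4 each). The mean and the median differ in sign here. In HFSC minus IFE the median log2 difference of these 16 was -0.09, with 10 below 0, beside 0.18 over all genes. The higher mean comes with differences of 1.77 to 2.39 in Hk1, Pfkm, Pfkp, Aldoc and Slc2a3. Slc2a3 differed by 2.35 but had 0 reads in IFE, so its share depends on the 0.5 CPM added. For the 4 lactate genes the means were 4.27 ± 0.38 in HFSC, 4.91 ± 0.32 in ORS and 5.81 ± 0.27 in IFE. The 3 pyruvate entry genes stood at 6.78 ± 0.15 in HFSC, 6.09 ± 0.17 in ORS and 6.61 ± 0.27 in IFE. The 10 TCA cycle genes stood at 7.62 ± 0.14 in HFSC, 7.97 ± 0.14 in ORS and 8.10 ± 0.05 in IFE. All 15251 genes averaged 4.002 ± 0.035 in HFSC, 3.88 ± 0.06 in ORS and 3.71 ± 0.09 in IFE. These means are descriptions of chosen genes and were not tested.

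**Figure D4:**
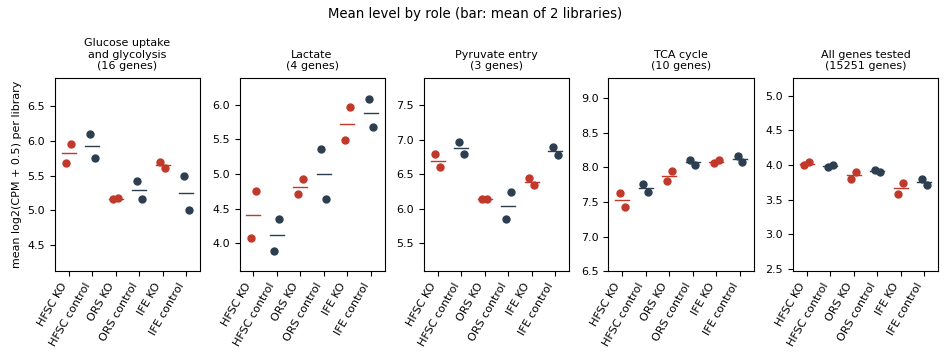
Mean log2(CPM + 0.5) per library over the members of each role and over all genes tested, all panels spanning the same range, with a point per library and a bar at the mean of 2 libraries. The lactate genes run from 3.89 in HFSC L136 to 6.08 in IFE control E341, and the TCA cycle genes from 7.43 in HFSC L97 to 8.17 in IFE control E341.

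Ratios between isoenzymes within a library do not depend on library scaling, and 21 were compared by exact two-sided permutation tests of 4 against 4 libraries, for which the smallest possible p is 0.0286. Of these, 10 reached that p, which adjusts to 0.06 over the 21, so 0 passed. The log2 ratio of Hk2 to Hk1 was 1.34 and 0.80 in the HFSC libraries labelled knockout and 0.15 and -0.33 in HFSC controls, 2.92 and 3.26 in ORS KO and 2.68 and 2.73 in ORS controls, and 1.89 and 2.29 in IFE KO and 2.64 and 1.51 in IFE controls. The HFSC, ORS and IFE ranges of this ratio do not overlap in any pairing. The log2 ratio of Ldhb to Ldha averaged -3.95 ± 0.20 in HFSC and -2.51 ± 0.15 in ORS, without overlap, and -3.26 ± 0.76 in IFE (SD, n = 4 each). Pfkp to Pfkl averaged 2.57 ± 1.04 in HFSC, 1.14 ± 0.32 in ORS and 0.07 ± 1.08 in IFE, and the HFSC and IFE values do not overlap.

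Marker genes of other cell types also differed between compartments, and their part in these differences was not tested. The summed level of 8 fibroblast markers was 771 to 1267 CPM in HFSC, 204 to 277 CPM in ORS and 855 to 1370 CPM in IFE. Most of that sum is Sparc, and without it the other 7 summed to 30.0 to 86.9 CPM in HFSC, 86.3 to 143 CPM in ORS and 177 to 299 CPM in IFE. Members of the list ran in different directions, since Dcn was at 0 to 10.7 CPM in HFSC, 38.5 to 51.3 CPM in ORS and 127 to 279 CPM in IFE, while Col1a1 and Vim were highest in ORS, at 5.73 to 18.7 CPM and 10.3 to 20.7 CPM. The sum of 6 melanocyte markers was 200.4 to 307 CPM in HFSC, 71.4 to 76.5 CPM in ORS and 14.5 to 29.4 CPM in IFE. Without Mitf the other 5 summed to 18.2 to 28.0 CPM in HFSC, 14.7 to 38.7 CPM in ORS and 14.1 to 24.0 CPM in IFE. That of 8 adipocyte and sebaceous markers, with Adipoq at 0, was 274 to 443 CPM in HFSC, 66.8 to 249.8 CPM in ORS and 63.8 to 120.5 CPM in IFE, of which Mgst1 made up 215 to 402 CPM in HFSC. Of 8 leukocyte markers Ptprc and Cd207 had 0 reads in all libraries. The sum was 29.9 to 61.3 CPM in HFSC, 11.4 to 14.8 CPM in ORS and 11.6 to 28.2 CPM in IFE, and Cd74 was called higher in HFSC than in either, at 18.6 to 45.1 CPM in HFSC. Of 6 endothelial markers Kdr, Vwf and Emcn were at 0 and the sum was at most 7.62 CPM. Of 8 muscle markers Tnnt3 and Des were at 0 and the sum was at most 17.4 CPM. In bulk samples, fewer cells of a type and less RNA per cell cannot be told apart.

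The second question is whether members differ with the deletion of Egfr. None of the members was called in any compartment by limma, with 0 of 33 in HFSC, 0 of 32 in ORS and 0 of 32 in IFE, and limma-voom also called 0. Over all genes tested, 0.0363% were called in HFSC (0.029% higher and 0.00726% lower) and 0% in ORS and in IFE. At an unadjusted p under 0.05, 4 members passed in HFSC, 1 in ORS and 2 in IFE, beside 7.64%, 3.40% and 7.53% of all genes. The median SE of a member's log2 difference was 0.23 in HFSC and 0.32 in ORS and IFE, so only large differences could have passed. Egfr itself was not called in ORS, at a log2 difference of -4.095 (SE 0.95), or in IFE, where no gene passed. The counts of 0 therefore do not show that the members were unchanged.

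In HFSC the members of smallest p were Pkm, Hk2, Sdha and Pfkp. Pkm had 366 and 375 CPM in the libraries labelled knockout, against 523 and 492 CPM in controls, a log2 difference of -0.45 (SE 0.15, adjusted p = 0.542). Hk2 had 145 and 131 CPM in the libraries labelled knockout, against 106 and 67.4 CPM in controls. Its log2 difference was 0.70 (SE 0.25, adjusted p = 0.58). Those of Sdha and Pfkp were -0.43 (SE 0.17, adjusted p = 0.62) and 0.44 (SE 0.18, adjusted p = 0.636). For these genes the genotypes do not overlap, as for 11 of 33 members in HFSC, 5 higher and 6 lower, beside 38% of all genes, 19.7% higher and 18.3% lower.

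In ORS, Aldoa had 372 and 470.5 CPM in KO, against 709 and 613 CPM in controls. Both KO values are lower, with a log2 difference of -0.66 (SE 0.18, adjusted p = 1). The next 3 by p were Suclg1 (-0.43 (SE 0.22, adjusted p = 1)), Slc16a1 (0.78 (SE 0.40, adjusted p = 1)) and Ldha (-0.34 (SE 0.24, adjusted p = 1)). Of 32 members, 26 had a log2 difference below 0, all 10 TCA cycle members among them, and the median was -0.21, beside -0.03 over all genes. Without ORS control E341, the male ORS library, the median was -0.12, with 21 of 32 below 0. With sex as a term the median and this count were the same. That fit is no separate check, since both sexes occur within a group only in ORS controls. Non-overlapping members numbered 14 of 32, 2 higher and 12 lower, beside 31.4% of all genes, 14.6% higher and 16.8% lower. ORS KO E359 kept more Egfr than E358, and the summed adipocyte and sebaceous markers, with Adipoq at 0, were 66.8 to 87.6 CPM in ORS KO and 112 to 249.8 CPM in ORS controls. The part of these in the member values was not tested.

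In IFE, Pkm had 641 and 545 CPM in KO, against 379.9 and 329.6 CPM in controls. Its log2 difference was 0.74 (SE 0.20, adjusted p = 0.442), and the groups do not overlap. Aldoc had 18.4 and 9.02 CPM in KO, against 5.62 and 0.803 CPM in controls, a difference of 2.25 (SE 0.90, adjusted p = 0.597) that rests on low values and was 1.13 without IFE control E360 and 3.36 without IFE control E341. Sdha differed by 0.50 (SE 0.24, adjusted p = 0.697) and Fh1 by -0.44 (SE 0.24, adjusted p = 0.751). The members' median was 0.02, beside -0.03 over all genes. Here 14 of 32 members did not overlap, 8 higher and 6 lower, beside 30.7% of all genes, 13.6% higher and 17.1% lower.

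The KO effect in ORS minus that in IFE was tested as an interaction, and 0 of 32 members and 0% of all genes were called, with 3 members at an unadjusted p under 0.05, beside 4.78% of all genes. The smallest p values belonged to Pkm (-0.88 (SE 0.28, adjusted p = 0.999)), Aldoa (-0.65 (SE 0.26, adjusted p = 0.999)), Pdk1 (1.77 (SE 0.79, adjusted p = 0.999)) and Slc16a1 (1.22 (SE 0.57, adjusted p = 0.999)). Pdk1 had 28.7 and 15 CPM in ORS KO and 7.29 and 19.4 CPM in ORS controls, and 30.2 and 32.7 CPM in IFE KO and 66.7 and 60.1 CPM in IFE controls. Its interaction was 1.09 without ORS control E341 and 2.45 without ORS control E344.

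**Figure D5:**
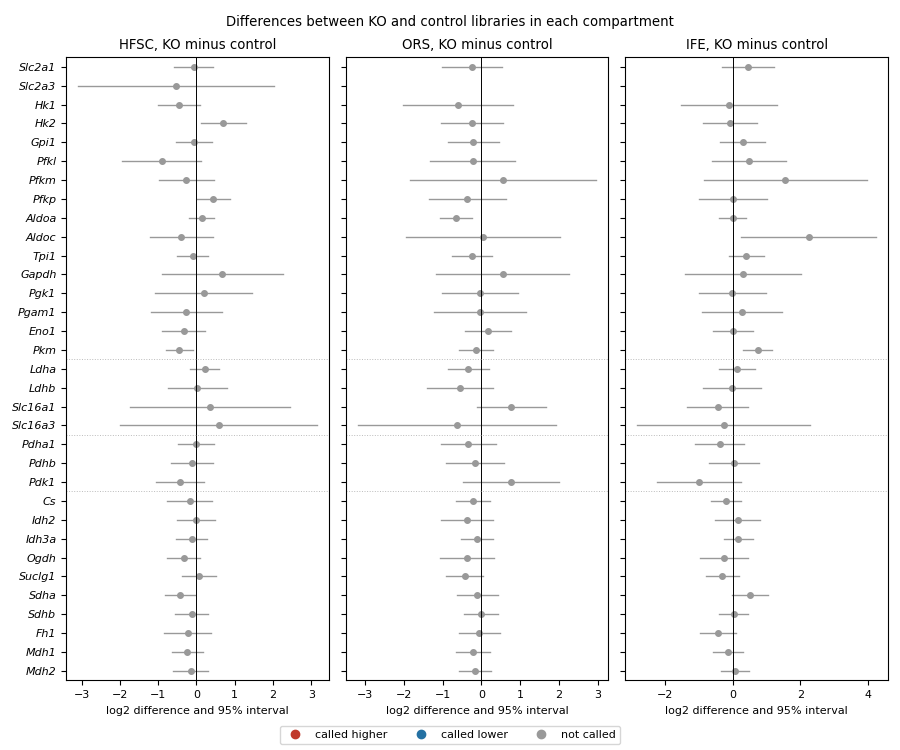
Log2 differences of the members between KO (or labelled knockout) and control libraries in each compartment (points) with 95% intervals (lines). No member is coloured as called, and the differences run from -0.90 to 0.70 in HFSC, -0.66 to 0.78 in ORS and -1.0 to 2.25 in IFE.

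Other genes of the same pathways were counted in lists chosen with earlier results known. In HFSC against ORS, 4 of 25 further glycolysis and gluconeogenesis genes were higher and 3 lower, 2 of 28 further pyruvate dehydrogenase and TCA cycle genes were higher and 5 lower, and 2 of 7 pentose phosphate genes were higher and 0 lower, beside 14.3% higher and 14.4% lower over all genes. Me3, a mitochondrial malic enzyme, averaged 22.3 ± 1.78 CPM in HFSC (SD, n = 4), against 0 reads in ORS, at least 193-fold above the 3-read limit of 0.115 CPM. Pgls, the phosphogluconolactonase, was higher in HFSC than in ORS by 2.50 (SE 0.35, adjusted p = 0.000224), and Slc16a7, which encodes the pyruvate and lactate transporter MCT2, was lower by -2.63 (SE 0.46, adjusted p = 0.0011).

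In HFSC against IFE, the further glycolysis genes counted 4 of 25 higher and 3 lower, the further TCA genes 5 of 28 higher and 4 lower, and the pentose phosphate genes 3 of 7 higher and 2 lower, beside 19.9% higher and 16.1% lower over all genes. The counts of the further glycolysis list are near the shares of all genes in both comparisons. Pdk2, another pyruvate dehydrogenase kinase, had 75 and 69.7 CPM in the HFSC libraries labelled knockout and 91.3 and 114 CPM in HFSC controls, against 1.59 and 8.15 CPM in IFE KO and 2.94 and 0 CPM in IFE controls. It differed by 5.19 (SE 0.63, adjusted p = 5.22e-05). Slc2a5, which encodes the fructose transporter GLUT5, differed by -3.56 (SE 0.69, adjusted p = 0.00166). It had 5.83 and 6.99 CPM in the HFSC libraries labelled knockout and 0 and 4.87 CPM in HFSC controls. The size of its difference thus depends in part on the 0.5 CPM added. Ldhd, a D-lactate dehydrogenase, differed by 3.50 (SE 0.46, adjusted p = 0.000101).

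In ORS against IFE the counts were 2 of 23 higher and 2 lower, 4 of 26 higher and 0 lower, and 1 of 7 higher and 1 lower for the same lists, beside 8.53% higher and 7.25% lower over all genes. Slc2a5 had 0 and 0 CPM in ORS KO and 0.0356 and 0 CPM in ORS controls, against 48.7 and 32 CPM in IFE KO and 33.7 and 44.8 CPM in IFE controls, and was called (adjusted p = 7.15e-05, limma). Slc16a7 had 76.9 and 173 CPM in ORS KO and 167 and 244 CPM in ORS controls, against 4.68 and 27.8 CPM in IFE KO and 37.3 and 43 CPM in IFE controls. The ORS level is higher by a log2 difference of 2.79 (SE 0.48, adjusted p = 0.0034), the reverse of Slc16a1. Idh1, the cytosolic isocitrate dehydrogenase, was higher by 1.59 (SE 0.15, adjusted p = 7.97e-05), Tkt, a transketolase, by 1.12 (SE 0.20, adjusted p = 0.0037), and G6pdx, the X-linked glucose 6-phosphate dehydrogenase, was lower by -2.09 (SE 0.40, adjusted p = 0.00554).

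HIF, the hypoxia-inducible factor, is known to raise many glycolytic transcripts. Of 20 HIF pathway genes and targets outside glycolysis, 6 were higher and 0 lower in HFSC than in ORS, beside 14.3% and 14.4% of all genes. In HFSC against IFE, 7 of 20 were higher and 3 lower, beside 19.9% and 16.1%. In ORS against IFE, 2 of 19 were higher and 3 lower, beside 8.53% and 7.25%. Ndrg1, a hypoxia-responsive gene, had 205 and 227 CPM in the HFSC libraries labelled knockout and 176 and 181 CPM in HFSC controls, against 44.6 and 22.5 CPM in ORS KO and 26.6 and 31.1 CPM in ORS controls and 7.93 and 28.3 CPM in IFE KO and 24.4 and 28.6 CPM in IFE controls. Its log2 difference was 2.68 (SE 0.36, adjusted p = 0.00016) from ORS and 3.26 (SE 0.36, adjusted p = 2.53e-05) from IFE. Adm, encoding the peptide adrenomedullin, averaged 4.29 ± 2.54 CPM in HFSC (SD, n = 4) and had 0 reads in every ORS and IFE library, at least 37.2-fold and 16.0-fold higher than the 3-read limits. Egln3, a HIF prolyl hydroxylase, was higher in HFSC than in ORS by 4.69 (SE 0.68, adjusted p = 0.000284) and lower in ORS than in IFE by -3.26 (SE 0.80, adjusted p = 0.0205). It was at 0 and 0 CPM in ORS KO and 3.91 and 0 CPM in ORS controls. Both differences thus depend on the 0.5 CPM added. IFE control E341, the lowest IFE value, was at 3.95 CPM.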

How the data were processed

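Per the labels' protocols, sorted mouse skin cells gave RNA through a PicoPure kit and cDNA through a SMARTer Ultra kit, which was read as 150 bp pairs. Trim Galore, DESeq2 and mm10 are named in the submitters' processing notes, without roles. For the aligner, counter, annotation and strand setting nothing is given in the sources used here. The deposited values are log2 reads per 1000000 of a library total, in which 0.9 read stands for genes that had none. At least 99.99% of values came out as whole reads within 0.2 reads. The unit is therefore log2, and the count test planned first (edgeR) was not used. Whole reads per gene were recovered, scaled by TMM over all 12 libraries (trims of 30% and 5%), and log2(CPM + 0.5) was tested with limma 3.58.1 (R 4.3.3, statmod 1.5.0, trend and robust), two-sided. This scale understates fold changes of low genes. The filter kept genes with 10 reads (scaled to the median library) in 2 libraries and 15 in total, and calls were made under 0.05 after Benjamini-Hochberg adjustment over all genes. The 8 IFE and ORS libraries were fitted as 4 groups, the 4 HFSC libraries alone, and all 12 as 6 groups for HFSC against IFE or ORS. The fits were tested on simulated data. Isoenzyme ratios used exact permutation tests (scipy 1.17.1) on reads plus 0.5. Replicates differed beyond sampling noise in every group, so none was counted as a copy.

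Exon lengths and shared 50-base windows come from GENCODE M21 (GRCm38, the build the deposited coordinates match), and promoters from RefSeq. Members and lists were chosen with earlier results of these data known. Fold change, SE and adjusted p are given for called members (the 4 largest rises and 4 largest falls where more than 8 were called), or for the 4 members of smallest p where fewer than 4 were called. Alternatives were other scalings, pseudocounts, filters and tests, sex as a term, a replicate block and leaving out each library. Control libraries alone and knockout libraries alone were added after seeing the data. Counting error is the only error that the limit of 3 reads for a count of 0 covers.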

Additional observations from a re-analysis of the deposited data

How the results depend on the processing

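The counts of members called with Egfr deletion and in the interaction were 0 under every alternative, leaving out each library included. In ORS against IFE, 10 members were called, against 21 on the deposited scale without TMM, 5 with sex as a term, 5 in control libraries alone, 5 in knockout libraries alone, and 5 to 9 with 1 library left out. Control libraries alone and knockout libraries alone, added after seeing the data, each gave 13 of 33 in HFSC against IFE (22 with both) and gave 11 and 9 in HFSC against ORS (18 with both), where fewer samples were fitted. Leaving out 1 library gave 15 to 22 in HFSC against IFE and 12 to 19 in HFSC against ORS, with the left-behind lone sample assumed to vary like the other groups. IFE and ORS libraries share 3 numbers, and the deviations of same-numbered libraries correlated at 0.0486 and 0.0555 over 14449 genes. With 2 libraries per group the deviations mirror each other. IFE E360 with ORS E344, of different numbers, therefore also gave 0.0486. This check cannot decide whether the numbers pair the libraries. With the number as a replicate block the ORS against IFE count was 1 as a fixed term, where few residual degrees of freedom remain. As an estimated correlation it was 11. The sex term rests on ORS controls E341 and E344 alone, the only group with both sexes. It cannot separate sex from genotype in IFE. Of 979 single values under alternatives, 783 had a test, of which 713 kept their direction and side of the threshold, 69 kept the direction and no longer passed, and 1 reversed. Of the 196 without a test, all isoenzyme ratios, 195 moved by less than the spread between libraries, 1 moved further, and 10 changed sign. All 11 sign changes among these values are in 2 uncalled ratios close to 0. The single values cover only the ratios and the members given with SE and adjusted p. Called members outside them are not counted. Of those, Gpi1, Tpi1, Mdh1 and Mdh2 in ORS against IFE and Gpi1 in HFSC against ORS changed sign on the deposited scale. Many tested values belong to members or ratios not called in the main fit, which had no call to lose. For Slc16a3 to Slc16a1 in ORS minus IFE the log2 ratio was -0.04 with 0.5 reads added, 1.63 with 0.5 CPM added, 0.55 in control libraries alone, 0.48 over the 3 shared numbers (replicate block), and -1.43 to 1.02 with 1 library left out. For Pfkm to Pfkl in HFSC minus ORS it was 0.02, and -0.22 to 0.35 with 1 library left out. The cause was not tested. Depth limits Slc2a3, Slc16a3 and Gapdh, which hold few reads per library, and the spread over 2 libraries per group limits the knockout comparisons.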
